A study of Mus musculus with 10 samples.

Results

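Cell cycle and DNA replication genes were examined in mouse embryonic stem (ES) cells treated with the acetyltransferase inhibitor MB-3 or with vehicle. The set comprised 42 of the 30677 genes in the count table and was listed by name, by a rule that uses no measured value, although earlier results of these data were known when it was listed. It held cyclins, cyclin-dependent kinases (Cdks) and their inhibitors, Rb and E2F family genes, replication genes and mitotic genes, placed by textbook role into 16 G1, 13 S and 13 G2/M genes. None of the 42 was lost to the filter on low counts, which left 20027 genes to test. TNGA cells are a single mouse ES cell line that carries a GFP reporter at an allele of Nanog, so the data describe that line alone. They were grown in serum and LIF, the cytokine that sustains self-renewal, and were treated for 48 h with vehicle or with 100 µM MB-3, which inhibits the histone acetyltransferase Kat2a (also called Gcn5). A final 0.1% of DMSO was present in both treatments. RNA-seq covered 3 libraries per treatment, lettered A, B and C. Acetylation of lysine 9 of histone H3 (H3K9ac), a mark of active promoters, was mapped by ChIP-seq and is held as 1 peak list per treatment.

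Depth was 48144367, 51137896 and 46863700 counts in DMSO A, B and C and 49334434, 44985772 and 42270312 counts in MB-3 A, B and C. Levels are given as counts per 1000000 of the normalized library size (CPM), and 1 in 1000000 of a library was 42.3 to 51.1 counted reads. The labels call the cultures triplicates without saying whether they were set up separately, and p-values measure the spread between these libraries, which may be technical. These are whole cultures, in which fewer cells in a phase and less RNA per cell cannot be told apart. The labelled cell type was checked against 8 ES cell markers, whose summed level was 3441, 3553 and 3292 CPM in DMSO A, B and C and 3386, 3549 and 3425 CPM in MB-3 A, B and C. Pou5f1, which encodes the pluripotency factor Oct4, had the highest level of them per exon length, with a mean of 300.0 CPM per kb, and stood at 672 ± 35.4 CPM over the DMSO libraries and 676 ± 35.1 CPM over the MB-3 libraries (SD, n = 3 each). The summed level overlapped between the treatments. Of the 8 markers, 1 had groups that were apart, beside 15.6% of all genes tested: Esrrb, at 699, 675 and 654 CPM in DMSO A, B and C and 639, 644 and 651 CPM in MB-3 A, B and C, and it did not pass in either fit (edgeR, Benjamini-Hochberg adjusted p = 0.697, and 0.400 with the replicate letter as a block).

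In a dividing cell, D-type cyclins with Cdk4 or Cdk6 and then E-type cyclins with Cdk2 phosphorylate the Rb family of pocket proteins, which frees E2F factors to transcribe genes for DNA synthesis. Cdc6 and Cdt1 load the MCM helicase onto replication origins, the origins fire in S phase, and cyclins A and B with Cdk1 then carry the cell into mitosis, where Plk1 and the Aurora kinases build the spindle and Cdc20 starts anaphase. Mouse ES cells are known for a short G1 phase, with strong cyclin E and Cdk2 activity and little D-type cyclin or Cdk inhibitor.

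The promoters of these genes shared letters that their listing had not used. RefSeq promoters on build GRCm38.p6, running from 250 bases before to 50 bases after a transcript start, were at hand for 34 of the 42 genes, with 39 promoters because 5 genes had more than 1. Each was searched on both strands for E2F sites (the letters TTTGGCGC, TTTCCCGC, TTTCGCGC and TTTGCCGC), which are bound by E2F factors, for the cell cycle genes homology region (CHR, the letters TTTGAA and TTCGAA), which is bound by the DREAM and MuvB complexes, and for the CCAAT box, which is bound by NF-Y. A gene was counted when any of its promoters held the letters, overlapping matches included. Such a match describes the sequence and does not show a bound site.

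E2F letters were found in 6 of 12 S genes (Cdc6, Cdt1, Mcm3, Mcm5, Mcm6 and Mcm7) and in 5 of 12 G1 genes (Cdc25a, Cdk2, Cdkn2a, E2f3 and Rbl1). Among G2/M genes they were found in 1 of 10, Cdk1, and among all 27025 genes with a promoter in 2.6%. CHR letters had another distribution, being present in 9 of 10 G2/M genes (all but Ccnb1), 3 of 12 S genes (Cdc45, Mcm2 and Mcm7), 1 of 12 G1 genes (E2f3) and 21.7% of all genes. The CCAAT box was present in 10 of 10 G2/M genes, 9 of 12 S genes, 7 of 12 G1 genes and 41.1% of all genes. CHR letters and a CCAAT box stood together in 9 of 10 G2/M promoters, against 8.61% of all genes.

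**Figure D1:**
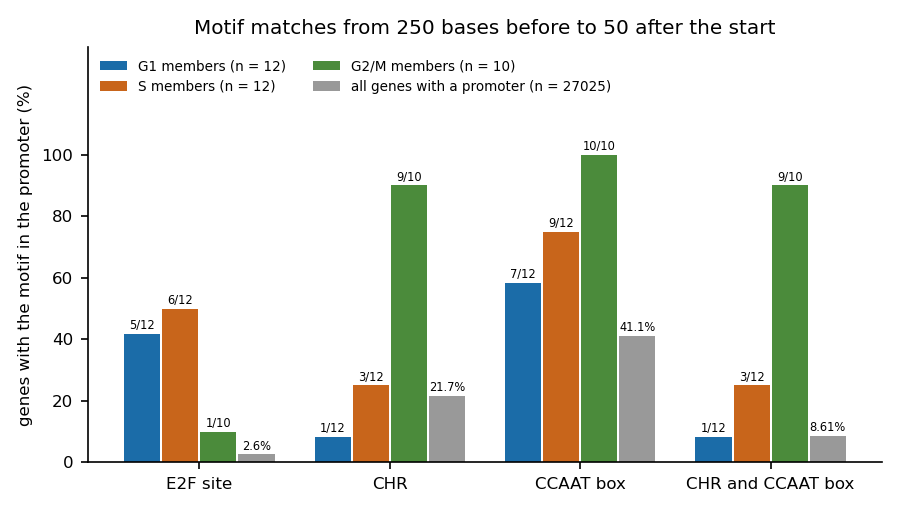
Percentage of genes whose RefSeq promoter holds each motif, for 12 G1, 12 S and 10 G2/M genes and for all 27025 genes with a promoter; numbers above the bars give matching genes out of those with a promoter, or the percentage. E2F letters stand out in G1 and S genes, and CHR letters with a CCAAT box in 9 of 10 G2/M genes.

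A pair of S and a pair of G2/M promoters are shown because H3K9ac peaks were assigned to all 4 genes and because they show the contrast in CHR letters between the classes. They were picked with their letters known. Capitals mark E2F letters, CHR letters and CCAAT boxes on either strand, and the sequences run 5′ to 3′ along the gene's own strand. Mcm3 (minus strand, chr1:20820263-20820562) and Mcm6 (minus strand, chr1:128359656-128359955) encode subunits of the replicative helicase. Cdk1 (minus strand, chr10:69352863-69353162) encodes the mitotic kinase, and Top2a (minus strand, chr11:99024140-99024439) the topoisomerase that untangles sister chromatids.
Mcm3: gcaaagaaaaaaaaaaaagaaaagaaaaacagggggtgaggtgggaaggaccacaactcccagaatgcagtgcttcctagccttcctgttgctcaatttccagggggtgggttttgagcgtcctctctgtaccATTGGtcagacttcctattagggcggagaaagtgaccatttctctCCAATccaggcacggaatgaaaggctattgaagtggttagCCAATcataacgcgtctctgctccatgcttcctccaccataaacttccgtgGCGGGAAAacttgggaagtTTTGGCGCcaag
Mcm6: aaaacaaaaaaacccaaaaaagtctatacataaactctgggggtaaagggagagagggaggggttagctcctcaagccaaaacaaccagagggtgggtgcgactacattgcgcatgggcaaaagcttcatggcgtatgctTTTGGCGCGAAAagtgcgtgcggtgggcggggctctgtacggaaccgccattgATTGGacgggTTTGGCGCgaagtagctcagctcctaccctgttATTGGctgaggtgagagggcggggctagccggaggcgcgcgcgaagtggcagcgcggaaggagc
Cdk1: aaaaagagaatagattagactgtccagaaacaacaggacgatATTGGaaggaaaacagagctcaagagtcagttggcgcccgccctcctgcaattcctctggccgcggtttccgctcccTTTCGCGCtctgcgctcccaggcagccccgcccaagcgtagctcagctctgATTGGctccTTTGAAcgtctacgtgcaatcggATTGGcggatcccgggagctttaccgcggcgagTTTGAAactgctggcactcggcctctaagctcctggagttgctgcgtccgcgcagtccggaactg
Top2a: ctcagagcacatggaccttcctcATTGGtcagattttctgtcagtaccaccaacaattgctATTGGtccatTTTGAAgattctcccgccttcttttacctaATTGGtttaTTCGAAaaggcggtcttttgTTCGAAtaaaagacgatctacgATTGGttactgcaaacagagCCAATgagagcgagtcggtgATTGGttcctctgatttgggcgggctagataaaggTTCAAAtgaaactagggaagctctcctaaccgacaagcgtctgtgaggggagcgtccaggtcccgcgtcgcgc
Mcm3 held 2 E2F matches, both after the start, and Mcm6 held 3, of which a pair overlapped in the letters TTTGGCGCGAAA. Neither S promoter held CHR letters, and CCAAT boxes numbered 3 in Mcm3 and 2 in Mcm6. Cdk1 held 1 E2F match, 2 CHR matches and 3 CCAAT boxes, and Top2a held 4 CHR matches and 6 CCAAT boxes with no E2F match.

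The 42 genes spanned a wide range of levels in these cells. Exon length is here the union of exons over all annotated transcripts, so levels and ranks per length also depend on the annotation. Divided by exon length, the mean level over 6 libraries had a median of 84.3 CPM per kb in S genes (range 9.34 to 164), 56.4 CPM per kb in G2/M genes (range 23.4 to 105) and 7.25 CPM per kb in G1 genes (range 0.197 to 156). Pcna, the sliding clamp of the replication fork, had the highest level of the 42 at 164 CPM per kb, followed by Cdk4, the partner of D-type cyclins, at 156 CPM per kb. Mcm5 (122), Mcm3 (112), Cdc20 (105) and Mcm7 (104 CPM per kb) came next, and the libraries of neighbours in this order overlapped at several places, as the plot of levels per exon length shows. The remaining MCM subunits stood at 88.6 (Mcm4), 84.9 (Mcm6) and 71.2 CPM per kb (Mcm2). In CPM not divided by length, Top2a was the highest of the 42, at 735 CPM in the DMSO mean and 743 CPM in the MB-3 mean.

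Levels differed most among the G1 genes. Of the E-type cyclin genes, Ccne1 stood at 48.3 CPM per kb and Ccne2 at 5.06 CPM per kb. The D-type cyclin genes were at 9.0 (Ccnd1), 6.71 (Ccnd3) and 0.197 CPM per kb (Ccnd2), the last being the lowest level of the 42. Cdk6 stood at 2.5 CPM per kb against 156 for Cdk4. Among Cdk inhibitor genes, Cdkn1b, which encodes p27, stood at 13.7 CPM per kb, while Cdkn2a and Cdkn2c, which encode inhibitors of Cdk4 and Cdk6, stood at 2.37 and 0.289 CPM per kb. Cdkn2a has a further product, Arf, that its single entry does not separate. Rb1, the retinoblastoma gene, was at 1.7 and its relative Rbl1, which encodes p107, at 4.37 CPM per kb. The annotation also holds 6 pseudogenes named after Ccnd3, Ccnb1, Ccnb2, Tyms and Pcna, and how reads shared with them were counted is not stated, so the levels of these 5 genes are uncertain to that extent. Exons of 13 of the 42 genes overlap exons of a gene on the opposite strand, and since the use of strand in counting is not stated, the reads of such partners cannot be told apart. The share of exon length overlapped was 23.4% in Ccnd1, 19.7% in Cdk4, 17.4% in Ccne2, 14.9% in Rb1, 12.6% in Mcm7 (2 miRNA genes on its own strand included) and 12.5% in Ccna2, and it was at most 7.86% in the other 7 (Ccnd2, Plk1, Cdc45, Ccnd3, Cdc20, Cdk6 and Cdk2).

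**Figure D2:**
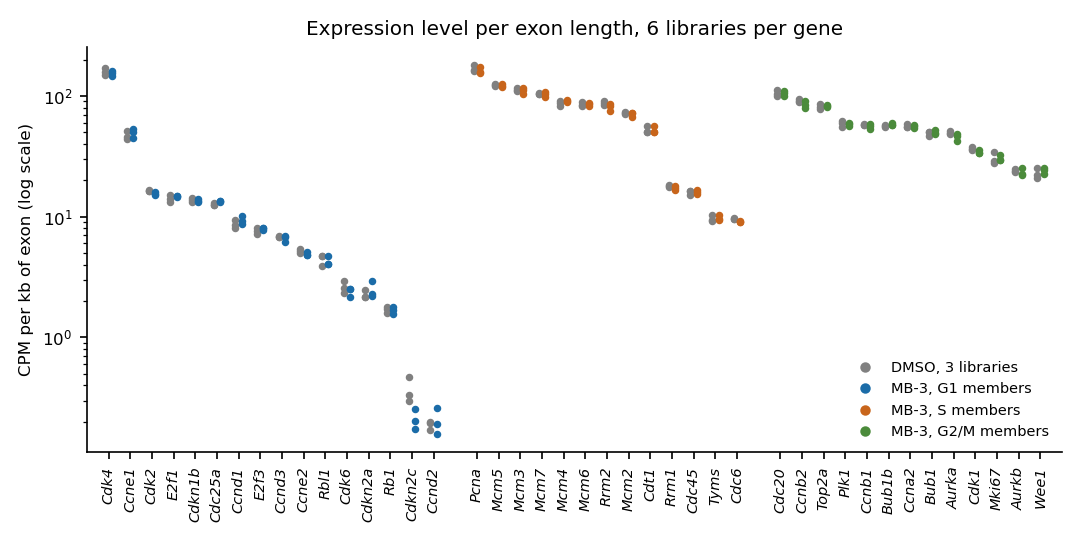
CPM per kb of exon on a log scale for each of the 42 genes, ordered by mean level within G1, S and G2/M genes; grey points are the 3 DMSO libraries and coloured points the 3 MB-3 libraries. S and G2/M genes lie above 9 CPM per kb in the mean, whereas G1 genes extend from Cdk4 at 156 down to Ccnd2 at 0.197 CPM per kb.

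MB-3 against DMSO addressed whether inhibiting Kat2a altered the RNA levels of these genes. No cell cycle gene of the 42 passed the test. Apart from Cdkn2c, the fitted log2 fold changes were at most 0.13 in size, 34 of 42 were under 0.1, and 16 were positive and 26 negative. The 95% confidence interval lay within 1.25-fold of no change in either direction for 39 genes, and within 1.5-fold for 41. Exceptions to the first bound were the low-level genes Ccnd2, Cdkn2a and Cdkn2c, and to the second Cdkn2c alone.

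With treatment as the single term, edgeR (quasi-likelihood F test, Benjamini-Hochberg threshold 0.05) called 0 of the 42 genes, against 0.205% of all genes tested (41 of 20027, with 20 higher and 21 lower). DESeq2 and limma-voom also called 0 of the 42, against 1.04% and 0.0899% of all genes tested. At an unadjusted p under 0.05, edgeR counted 1 of the 42 (Cdkn2c), against 10.9% of all genes tested. With the replicate letter as a block, the count of calls over all genes was 7.12% (1425 of 20027, with 644 higher and 781 lower), and among the 42 it was 0 by edgeR, DESeq2 and limma-voom, the last 2 calling 3.36% and 7.33% of all genes tested. At an unadjusted p under 0.05 the blocked edgeR fit counted 7 of the 42, against 20.1% of all genes tested: Ccnd1 with a positive fold change and Cdk6, Cdkn2c, Rrm2, Ccnb2, Cdk1 and Aurka with negative ones. The groups did not overlap for 5 of the 42 genes, against 15.6% of all genes tested. These were Cdc25a, higher in MB-3, and Cdk2, Cdkn2c, Cdc6 and Aurka, lower in MB-3.

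The median log2 fold change of the 42 genes was -0.02, beside -0.00 over all genes tested. Its size had a median of 0.05, beside 0.10 over all genes tested and 0.06 over the 10164 genes with a mean of at least 10 CPM. Sizes under 0.1 made up 81% of the 42 genes, 50.7% of all genes tested and 69.6% of those with at least 10 CPM. The median level was 129, 10.5 and 40.8 CPM in the same order, so neither background matched the 42 genes in level. The median standard error was 0.06 for the 42 genes and 0.07 for genes with at least 10 CPM.

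G1, S and G2/M genes had medians that lay within 0.01 of each other. The median log2 fold change was -0.02 in G1 genes (range -0.80 to 0.11, 7 positive and 9 negative), -0.02 in S genes (range -0.10 to 0.05, 4 positive and 9 negative) and -0.01 in G2/M genes (range -0.13 to 0.08, 5 positive and 8 negative). Summed over the class, the level of G1 genes was 1192 ± 40.2 CPM over the DMSO libraries and 1180 ± 36 CPM over the MB-3 libraries (SD, n = 3 each). It was 3755 ± 59.4 and 3699 ± 126 CPM for S genes and 2889 ± 65.1 and 2867 ± 40.8 CPM for G2/M genes, in the same order. Each of these differences was smaller than the SD of either group.

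**Figure D3:**
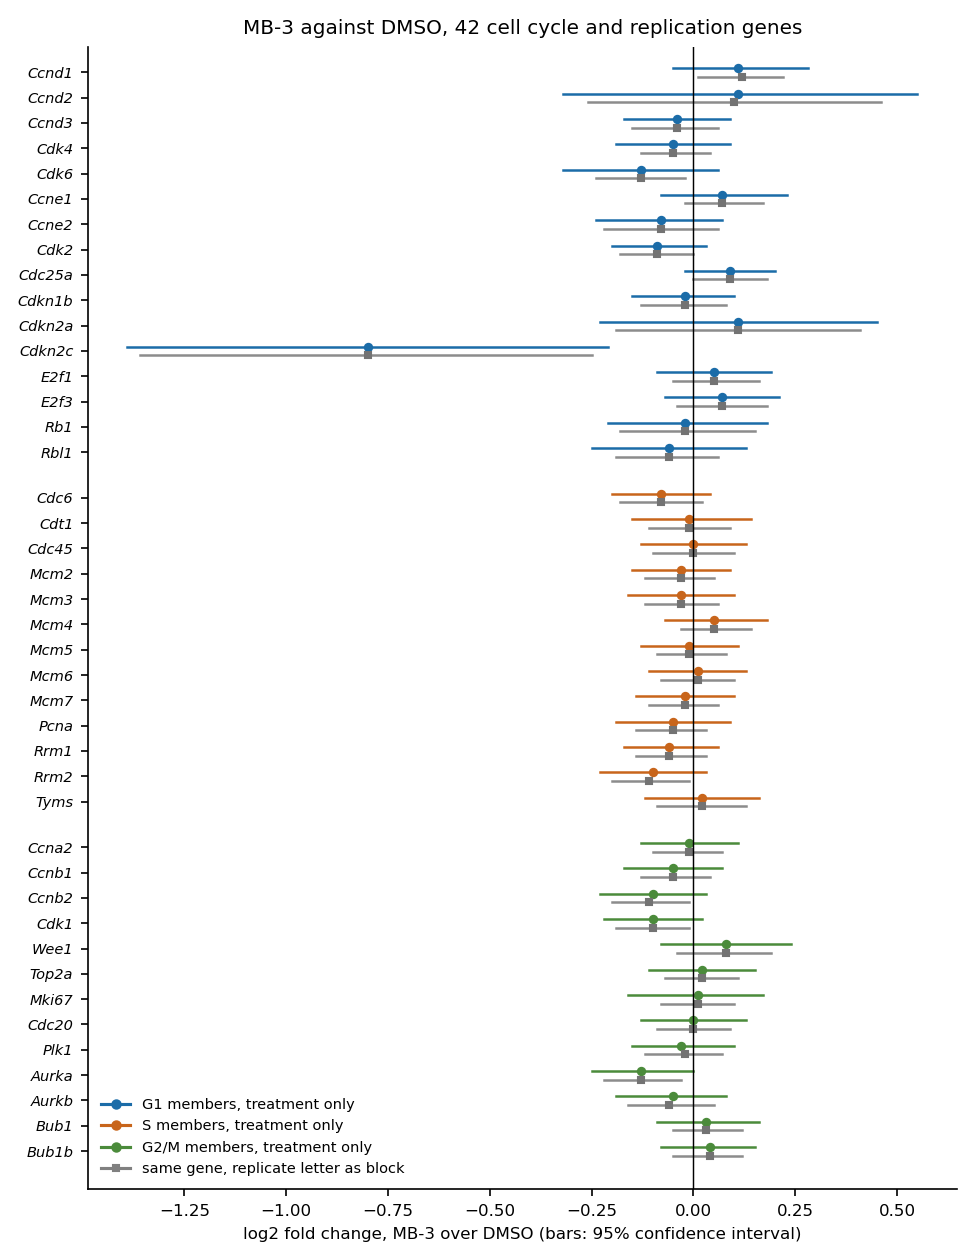
Log2 fold change of MB-3 over DMSO with its 95% confidence interval for the 42 genes, coloured for the fit with treatment as the single term and grey for the fit with the replicate letter as a block. Points other than Cdkn2c lie within 0.13 of 0, and most coloured intervals cross 0.

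D-type cyclins connect growth signals to the cycle. Ccnd1 stood at 40.4, 37.7 and 43.9 CPM in DMSO A, B and C and at 41.2, 43.6 and 47.4 CPM in MB-3 A, B and C. Its MB-3 libraries were the higher of each letter but overlapped the DMSO libraries, and the log2 fold change of 0.11 (SE 0.07) did not pass (edgeR, Benjamini-Hochberg adjusted p = 0.605). Ccnd2 was low, at 1.62 to 1.89 CPM in DMSO and 1.5 to 2.47 CPM in MB-3, and Ccnd3 stood at 59.7 ± 0.697 and 58 ± 3.28 CPM (SD, n = 3).

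Cdk4, a catalytic partner of D-type cyclins, stood at 483, 554 and 511 CPM in DMSO A, B and C and at 478, 518 and 498 CPM in MB-3 A, B and C. These groups overlapped, with a log2 fold change of -0.05 (SE 0.06). Cdk6 had a log2 fold change of -0.13 (SE 0.09), from 36, 32.8 and 41 CPM in DMSO A, B and C and 35, 30.1 and 35 CPM in MB-3 A, B and C. The MB-3 library was lower within each letter, yet the groups overlapped and the difference did not pass (edgeR, Benjamini-Hochberg adjusted p = 0.618).

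Cyclin E with Cdk2 starts DNA synthesis. Ccne1 stood at 118, 136 and 121 CPM in DMSO A, B and C and at 120, 142 and 134 CPM in MB-3 A, B and C. In both treatments the B library was the highest, and the log2 fold change was 0.07 (SE 0.07). Ccne2 had a log2 fold change of -0.08 (SE 0.07).

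Cdk2 stood at 102, 104 and 102 CPM in DMSO A, B and C and at 96.5, 93.6 and 99.2 CPM in MB-3 A, B and C. Cdc25a, the phosphatase that activates Cdk2, stood at 104, 101 and 101 CPM in DMSO and at 107, 109 and 109 CPM in MB-3, in the same order. Groups did not overlap for either gene, and the shifts were opposite in sign and near equal in size, with log2 fold changes of -0.09 (SE 0.05) for Cdk2 and 0.09 (SE 0.05) for Cdc25a. Neither passed (edgeR, Benjamini-Hochberg adjusted p = 0.571 for Cdk2 and 0.565 for Cdc25a).

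Among the inhibitors, Cdkn2c, which encodes p18, had the largest fold change of the 42 genes at one of the lowest levels. It stood at 1.27, 0.897 and 0.797 CPM in DMSO A, B and C and at 0.543, 0.683 and 0.466 CPM in MB-3 A, B and C, and its counts averaged 36.8 per library. All 3 MB-3 libraries were below all 3 DMSO libraries, with the smallest gap between DMSO C and MB-3 B. The log2 fold change of -0.80 (SE 0.27, 95% confidence interval -1.39 to -0.21) did not pass (edgeR, Benjamini-Hochberg adjusted p = 0.290, and 0.069 with the replicate block). The other inhibitor genes of the 42, Cdkn1b and Cdkn2a, had groups that overlapped.

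Cdkn1b, which encodes p27, stood at 62.5, 60.6 and 64.9 CPM in DMSO A, B and C and at 61.3, 64.1 and 59.7 CPM in MB-3 A, B and C, a log2 fold change of -0.02 (SE 0.06) between groups that interleaved. Cdkn2a ranged from 2.54 to 2.91 CPM in DMSO and from 2.59 to 3.43 CPM in MB-3. Of the Rb and E2F genes, Rb1 stood at 9.55, 10.4 and 10.8 CPM in DMSO A, B and C and at 10.2, 9.45 and 10.8 CPM in MB-3 A, B and C. That is a log2 fold change of -0.02 (SE 0.09), among the smallest of the G1 genes. Rbl1 had a log2 fold change of -0.06 (SE 0.09), E2f1 of 0.05 (SE 0.06) and E2f3 of 0.07 (SE 0.06), and in each the groups overlapped.

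Of the factors that load the helicase, Cdc6 stood at 50.6, 49.8 and 50 CPM in DMSO A, B and C and at 47.1, 47.5 and 47.9 CPM in MB-3 A, B and C. The replicates were tight and the groups were apart, but the log2 fold change of -0.08 (SE 0.06) did not pass (edgeR, Benjamini-Hochberg adjusted p = 0.641). Cdt1, its partner in licensing, had a log2 fold change of -0.01 (SE 0.07), with DMSO at 157 to 178 CPM and MB-3 at 157 to 176 CPM. Cdc45, which joins the helicase as origins fire, had the smallest fold change of the S genes, at 0.00 (SE 0.06), from 52.8, 57.6 and 57.2 CPM in DMSO A, B and C and 53.9, 57.8 and 56.2 CPM in MB-3 A, B and C.

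The MCM helicase genes stayed close together. Summed over the 6 subunits, the level was 2602, 2596 and 2557 CPM in DMSO A, B and C and 2475, 2595 and 2640 CPM in MB-3 A, B and C, so that the MB-3 libraries lay on both sides of the DMSO libraries. Mcm5 stood at 489, 484 and 498 CPM in DMSO A, B and C and at 484, 475 and 505 CPM in MB-3 A, B and C, a log2 fold change of -0.01 (SE 0.06). Mcm3 stood at 415, 435 and 419 CPM in DMSO and at 386, 423 and 434 CPM in MB-3, in the same order, a log2 fold change of -0.03 (SE 0.06). MB-3 A was the lowest library for Mcm3, as it was for Mcm2 and Mcm7. Over the 6 subunits the fold changes ran from -0.03 in Mcm2 and Mcm3 to 0.05 in Mcm4.

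Pcna stood at 391, 429 and 385 CPM in DMSO A, B and C and at 369, 415 and 376 CPM in MB-3 A, B and C. Its B library was the highest of each treatment, and the groups overlapped, with a log2 fold change of -0.05 (SE 0.07). Ribonucleotide reductase supplies deoxynucleotides, and its subunit genes are Rrm1 and Rrm2, of which Rrm2 had the largest fold change among S genes. Rrm2 stood at 242, 250 and 234 CPM in DMSO A, B and C and at 209, 230 and 237 CPM in MB-3 A, B and C. MB-3 A and B were below every DMSO library and MB-3 C was not, and the log2 fold change of -0.10 (SE 0.06) did not pass (edgeR, Benjamini-Hochberg adjusted p = 0.562). Rrm1 stood at 199, 200 and 195 CPM in DMSO and at 184, 198 and 189 CPM in MB-3, in the same order. Its log2 fold change was -0.06 (SE 0.05), and Tyms, which encodes thymidylate synthase, had one of 0.02 (SE 0.06).

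Cyclins A and B with Cdk1 drive mitotic entry. Ccna2 had a log2 fold change of -0.01 (SE 0.06) and Ccnb1 of -0.05 (SE 0.06). Ccnb2 stood at 136, 145 and 138 CPM in DMSO A, B and C and at 122, 129 and 139 CPM in MB-3 A, B and C, and MB-3 C lay among the DMSO libraries. Cdk1 stood at 175, 187 and 179 CPM in DMSO and at 165, 176 and 165 CPM in MB-3, in the same order. For Cdk1 the MB-3 library was lower within each letter, although MB-3 B exceeded DMSO A. Neither of the last 2 genes passed, with log2 fold changes of -0.10 (SE 0.06) in both (edgeR, Benjamini-Hochberg adjusted p = 0.561 for Ccnb2 and 0.547 for Cdk1). Wee1, the kinase that holds Cdk1 inactive, had a log2 fold change of 0.08 (SE 0.07) and levels of 71.8, 86 and 75.4 CPM in DMSO and 82.4, 76.7 and 86.9 CPM in MB-3.

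Aurka, the spindle pole kinase, had the largest fold change of the G2/M genes. It stood at 125, 130 and 123 CPM in DMSO A, B and C and at 108, 117 and 122 CPM in MB-3 A, B and C. All MB-3 libraries were below all DMSO libraries, but MB-3 C was separated from DMSO C by less than the libraries of either group were from each other. The log2 fold change of -0.13 (SE 0.06) did not pass (edgeR, Benjamini-Hochberg adjusted p = 0.459, and 0.099 with the replicate block). With the block and without letter C, 3 of the 42 genes passed, beside 5.15% of all genes tested in that fit: Aurka (log2 fold change -0.18), Rrm2 (-0.17) and Ccnb2 (-0.16) had edgeR Benjamini-Hochberg adjusted p-values of 0.018, 0.021 and 0.048. Without letter B, 1 of the 42 passed, Wee1 (0.20, edgeR, Benjamini-Hochberg adjusted p = 0.046), beside 4.51% of all genes tested, and without letter A 0 passed, beside 4.71%. These counts lie near the shares over all genes and are no result about the 42. No other alternative called any of the 42.

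Aurkb, the kinase of the chromosomal passenger complex, had a log2 fold change of -0.05 (SE 0.06), Plk1 of -0.03 (SE 0.06), Bub1 of 0.03 (SE 0.06) and Bub1b of 0.04 (SE 0.05), the last 2 being spindle checkpoint genes. Cdc20, which activates the anaphase-promoting complex, had the smallest fold change of the G2/M genes at -0.00 (SE 0.06), from 185, 210 and 194 CPM in DMSO A, B and C and 187, 196 and 205 CPM in MB-3 A, B and C. Top2a stood at 772, 736 and 697 CPM in DMSO A, B and C and at 740, 755 and 735 CPM in MB-3 A, B and C, and its log2 fold change was 0.02 (SE 0.06). The proliferation marker Mki67 stood at 342, 278 and 289 CPM in DMSO and at 323, 294 and 296 CPM in MB-3, in the same order. Letter A was the highest for Mki67 in both treatments, and its log2 fold change was 0.01 (SE 0.08).

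Class medians varied more between the libraries of a treatment than between the treatments. Relative to each gene's DMSO mean on the log2(CPM + 0.1) scale, the median S gene was at -0.09 in MB-3 A, 0.01 in MB-3 B and 0.00 in MB-3 C, and the median G2/M gene at -0.07, -0.01 and 0.00. The median G1 gene was at -0.03, -0.00 and 0.07 in MB-3 A, B and C. Over the DMSO libraries the class medians ran from -0.03 to 0.05. MB-3 A held the lowest level of the 6 libraries for 14 of the 42 genes and the highest for 0, and DMSO B held the highest for 14. The shares over all genes were not counted, so these counts are no result about the 42. Compared within a letter, the median of the 42 genes was -0.04 in A, -0.03 in B and 0.02 in C. Letters A and B thus lay on one side of 0 and letter C on the other.

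**Figure D4:**
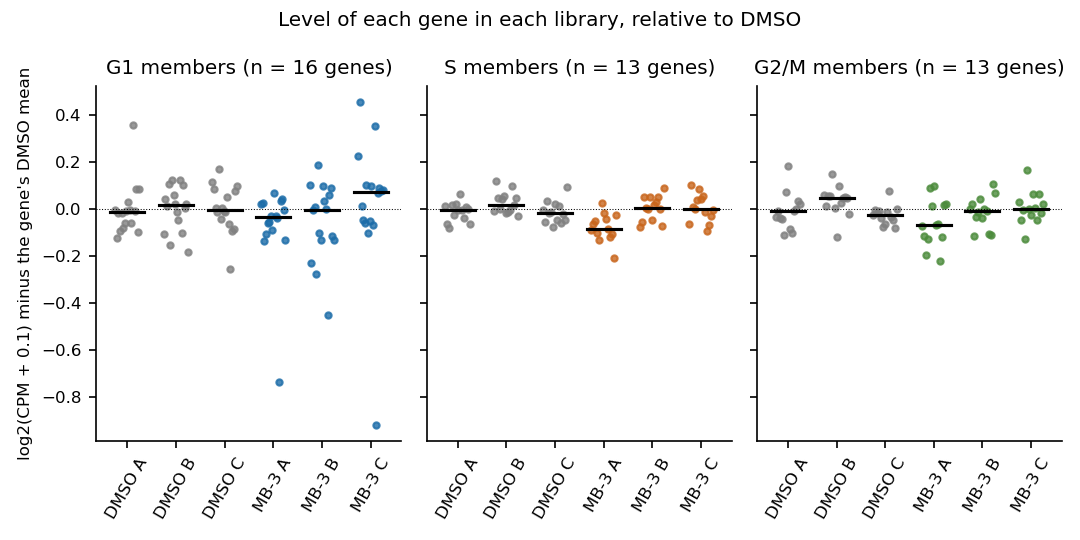
Level of each gene in each library as log2(CPM + 0.1) minus the gene's mean over DMSO A, B and C, in panels for 16 G1, 13 S and 13 G2/M genes; points are genes and black lines are medians over genes. S and G2/M genes sit lowest in MB-3 A, with medians of -0.09 and -0.07, and the points far below 0 in the G1 panel are Cdkn2c.

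The wider cell cycle machinery was read from 6 further lists of 122 genes, all of them tested. With treatment as the single term edgeR called 0 of the 122, beside 0.205% of all genes tested, and 8 had an unadjusted p under 0.05, beside 10.9% of all genes tested. With the replicate letter as a block, 5 passed, 2 of them higher in MB-3 and 3 lower, beside 7.12% of all genes tested. The median log2 fold change of the 122 was -0.01. It was -0.17 in the 6 other Cdk inhibitor and pocket protein genes (1 positive, 5 negative) and ran from -0.02 to 0.02 in the other lists. Groups were apart for 18 of the 122, beside 15.6% of all genes tested. Of these, 2 were in that list of 6, Cdkn1a and Cdkn2d, both lower in MB-3. By list, the blocked calls were 1 of 6 other Cdk inhibitor and pocket protein genes, 0 of 14 other E2F and DREAM genes, 1 of 18 origin licensing and firing genes, 1 of 29 replication fork and nucleotide supply genes, 0 of 30 mitotic entry and spindle genes, and 2 of 25 anaphase-promoting complex and checkpoint genes.

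Cdkn1a, which encodes the p53-inducible Cdk inhibitor p21, had the largest difference of the 122. It stood at 32.4, 30.6 and 44.1 CPM in DMSO A, B and C and at 23.4, 21.5 and 28.5 CPM in MB-3 A, B and C. The groups were apart, and letter C was the highest in both treatments. Its log2 fold change was -0.55 (SE 0.13), which did not pass with treatment as the single term and passed with the block (edgeR, Benjamini-Hochberg adjusted p = 0.129 and 5.8e-08). Pttg1, which encodes securin, the inhibitor of separase, stood at 15.9, 18.2 and 20.5 CPM in DMSO A, B and C and at 13, 12.1 and 14.9 CPM in MB-3 A, B and C. Its groups were apart too, and the log2 fold change of -0.45 (SE 0.10) did not pass with treatment as the single term and passed with the block (edgeR, Benjamini-Hochberg adjusted p = 0.120 and 7.1e-05).

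Smaller differences passed with the block in 3 more genes, whose calls were lost in other blocked fits. Pole2, a subunit of DNA polymerase epsilon, stood at 40.4, 43.6 and 40.9 CPM in DMSO A, B and C and at 34.3, 38.1 and 36.3 CPM in MB-3 A, B and C, a log2 fold change of -0.20 (SE 0.07). Ticrr, which helps origins fire, stood at 113, 97.6 and 92.7 CPM in DMSO and at 126, 108 and 108 CPM in MB-3, in the same order, a log2 fold change of 0.17 (SE 0.08). Atm, the kinase that senses DNA breaks, stood at 76.7, 57.2 and 65.4 CPM in DMSO and at 81.7, 71.5 and 70.7 CPM in MB-3, also 0.17 (SE 0.09). For Ticrr and Atm the treatments overlapped and letter A was highest in both, so that the difference shows within letters. In edgeR with Benjamini-Hochberg adjustment the blocked p-values were 0.014 for Pole2, 0.015 for Ticrr and 0.032 for Atm, and those with treatment alone were 0.266, 0.469 and 0.538. By blocked DESeq2, Ticrr passed (0.031) and Pole2 and Atm did not (0.077 and 0.139). In blocked edgeR fits without 1 letter, Ticrr did not pass whichever letter was left out (Benjamini-Hochberg adjusted p = 0.076, 0.055 and 0.077 without A, B and C). Pole2 did not pass without A or B (0.142 and 0.057), and Atm did not pass without B (0.403). Where these calls were lost, the log2 fold changes were 0.18, 0.19 and 0.15 for Ticrr without A, B and C. They were -0.19 and -0.21 for Pole2 without A and B, and 0.10 for Atm without B. Cdkn1a and Pttg1 passed in all of these blocked fits.

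**Figure D5:**
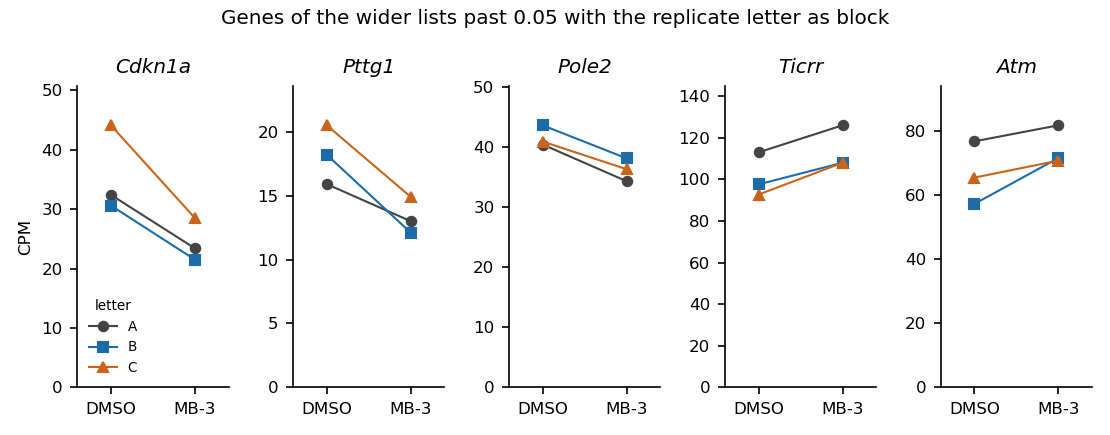
CPM of the 5 genes of the wider lists that passed 0.05 with the replicate letter as a block, with lines joining the DMSO and MB-3 libraries of a letter. The lines for Cdkn1a, Pttg1 and Pole2 descend and those for Ticrr and Atm ascend in all 3 letters.

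The remaining genes of the wider lists passed in neither fit. After the 5 genes above, the smallest blocked p-values by list belonged to Cdkn2d (-0.21), Cdkn3 (-0.29) and Cdkn1c (-0.10) among inhibitors, to E2f5 (-0.15), Tfdp2 (0.11), E2f6 (-0.14) and Tfdp1 (-0.09) among E2F and DREAM factors, and to Gins1 (0.13), Gins2 (-0.09, with 67.3% of its exon length under exons of another gene) and Mcm10 (0.07) among origin factors. Replication fork genes gave Pole (0.13), Timeless (0.12) and Rfc4 (-0.12), spindle genes Ndc80 (-0.12), Nusap1 (-0.09), Tpx2 (-0.09) and Smc2 (0.08), and checkpoint genes Atr (0.13) and Anapc13 (0.13). Values in parentheses are log2 fold changes with treatment as the single term. The 2 genes with the most CPM in each list included Mybl2 at 516 ± 9.1 in DMSO and 539 ± 6.45 in MB-3, Ube2s at 385 ± 23.1 and 362 ± 14, Dbf4 at 288 ± 5.01 and 294 ± 3.85, and Topbp1 at 270 ± 15.8 and 280 ± 10.8 (SD, n = 3). Besides Cdkn1a and Cdkn1c, the others by that rule were Smc4, Lig1, Ncapd2, Rpa1, Anapc5 and E2f4, the last 6 with log2 fold changes from -0.03 to 0.05. Fen1, the flap endonuclease gene, was picked out after its values were seen: it stood at 1.96 ± 0.186 CPM over the DMSO and 2.02 ± 0.197 CPM over the MB-3 libraries (SD, n = 3 each), with exons of other genes over 84.2% of its exon length.

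Some markers of other cell types passed with the block, as Cdkn1a and Pttg1 did, and none passed with treatment as the single term. Early mesendoderm markers summed to 29.5, 17.8 and 55.9 CPM in DMSO A, B and C and to 11.5, 8.77 and 16.3 CPM in MB-3 A, B and C, with Brachyury (T) the most abundant, and 5 of 7 were lower with the block, which called 7.12% of all genes tested. Simple epithelium and trophoblast markers summed to 230, 152 and 350 CPM in DMSO and to 146, 122 and 199 CPM in MB-3, in the same order. Of these 8, Krt8, Krt18 and Krt19 were lower and Tfap2c was higher with the block. Tfap2c had the most CPM in the mean of all 6 libraries, although Krt18 and Krt8 exceeded it in the DMSO mean (81.1 and 73.3 against 63.4 CPM). Letter C was the highest in both treatments for both lists, as it was for Cdkn1a and Pttg1.

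Extraembryonic endoderm markers summed to 67.6, 53.9 and 68.7 CPM in DMSO A, B and C and to 56.9, 53 and 57.9 CPM in MB-3 A, B and C, with Lama1 the most abundant and 1 of 8 lower with the block. Fibroblast markers summed to 12.5, 10.2 and 14.3 CPM in DMSO and to 8.62, 8.74 and 9.09 CPM in MB-3, with Thy1 the most abundant, 6 of 10 under 1 CPM and 2 of 10 lower with the block. Of the 8 ES cell markers, 1 was higher with the block (Sall4). Against the 7.12% of all genes that the block called, the 1 of 8 in the endoderm and ES cell lists is near the background. No marker of the 5 lists passed with treatment as the single term, and none was at 0 in all 6 libraries. The part of these cell types in the values of Cdkn1a, Pttg1 and the 42 genes was not tested.

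H3K9ac peaks were assigned to 13 of the 42 genes by the portion of the study's peak annotation used here, on build mm9. The lists held 11724 peaks in DMSO and 4673 in MB-3, and 35.8% of all DMSO peaks were overlapped by an MB-3 peak by at least 1 bp. Of the 11 DMSO peaks assigned to 8 cell cycle genes, 6 were overlapped by an MB-3 peak, at Aurkb, Cdk1, Cdk2, Cdk4, Mcm3 and Top2a. The overlapped peaks were 736 to 1319 bp wide, with a median of 1120 bp, and the other 5 were 280 to 824 bp wide, with a median of 546 bp. Over all DMSO peaks the medians were 794 bp for overlapped and 429 bp for other peaks. Each list comes from merged duplicates and holds positions alone, so no replicate error, height or depth stands behind these counts.

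At Top2a the DMSO peak chr11:98884160-98885478 was covered to 92% by 2 MB-3 peaks, and at Cdk1 the DMSO peak chr10:68814358-68815639 was covered to 72.1% by 1. At Mcm3 the DMSO peak chr1:20809234-20810334 was covered to 73.5% by 2 MB-3 peaks of 504 and 399 bp. At Mcm6 the peaks chr1:130255332-130255611 and chr1:130255729-130256274 had no MB-3 counterpart, nor had the Cdc6 peak chr11:98769199-98770022. Aurkb kept 1 of 3 peaks, the one at chr11:68859207-68860001. Its peaks without an MB-3 counterpart lay apart from it, at chr11:68850586-68850867 and chr11:68852924-68853700, and none was placed against the transcript start. RNA of the genes without an overlapped peak did not pass the test, with log2 fold changes of 0.01 for Mcm6 and -0.08 for Cdc6. A further 5 genes (Ccnb1, Cdc45, E2f3, Mcm4 and Rrm2) had assigned peaks only in the MB-3 portion of the annotation used here. DMSO peaks overlapped these too, such as 1 of 1402 bp at Ccnb1, but were not assigned in the DMSO portion. Assigned DMSO peaks lay on chr1, chr10 and chr11, and the peaks of these 5 genes on chr12, chr13 and chr16. The portions may thus cover the lists unequally, and the 6 of 11 above leaves such DMSO peaks out. All 17 MB-3 peaks assigned to the set were overlapped by a DMSO peak. The overlapped share of all MB-3 peaks was not counted, so the 17 are no result about the set. Positions on mm9 were not converted and were not compared with the promoters above.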

How the data were processed

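Per the labels and the methods of the study, the authors took single-end reads of polyadenylated RNA through trimming, Bowtie alignment (mm10) and exon counting by GenomicAlignments. The deposited table holds raw counts for each Ensembl gene in 3 libraries per treatment. Tool versions, annotation release and strand setting are not given in the sources used here. For H3K9ac the authors aligned reads to mm9 with BWA, merged duplicates and called peaks against input with MACS2, and the deposited lists hold positions alone. The count table had 30677 genes, 0 entries naming no gene and 0 unused columns, and 30540 identifiers were paired with a symbol in GENCODE M21 (GRCm38).

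Counts were fitted with edgeR 4.0.16 in R 4.3.3 (filterByExpr, TMM, glmQLFit and glmQLFTest, treatment as the single term) and p-values were adjusted by Benjamini-Hochberg over all 20027 genes tested, with 0.05 as the threshold. CPM uses the normalized library size, and 95% confidence intervals come from the same fit. Opposite-strand and same-strand exon overlaps were taken from GENCODE M21. The script was tested on simulated counts. Alternatives were RLE and upper-quartile normalization, no filter, at least 1 CPM in 3 libraries, edgeR's robust option, DESeq2 1.42.0, limma-voom (limma 3.58.1), a block for the replicate letter, omission of each library in turn, and other peak overlap rules. Tables were handled in Python 3.11.15 with pandas 2.3.3 and numpy 2.4.6, and plots were drawn with matplotlib 3.10.9.

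The letters A, B and C are shared by the treatments in the labels, which do not say what a letter stands for. Deviations from the group mean over 20027 genes correlated at 0.12, 0.29 and 0.23 for libraries of the same letter A, B and C, and between -0.23 and -0.02 for different letters. The letters were taken to pair the libraries because of the same-letter values. Deviations cancel within a group, so positive same-letter values force different-letter values to be negative on balance, and the latter are no separate evidence. Over the 42 genes alone the same-letter values were 0.22, -0.00 and 0.42 and the different-letter values ran from -0.53 to 0.43, the highest being DMSO A with MB-3 B, so the letters did not stand apart there. These correlations are across genes, which are not independent replicates.

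The 42 genes and the other lists were chosen with earlier results of these data known. Genes given in full were, in each class, the 3 with the largest and the 2 with the smallest absolute log2 fold change and the 3 with the highest level per length. Cdc25a and Wee1 fell outside this rule and were given in full after their values were seen. Of each further list, the 4 genes with the smallest blocked p-value and the 2 with the highest level were named. Among these, those that passed with the block were given by library. Peaks were assigned to genes from the study's peak annotation, of which a shortened version was used here, and counts of overlap cover that version alone.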

Additional observations from a re-analysis of the deposited data

How the results depend on the processing

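Of 797 fits of the 42 genes under 19 alternatives, 733 kept their sign and stayed short of the threshold, 60 changed sign short of it, and 4 passed it (Aurka, Rrm2, Ccnb2 and Wee1, each with 1 letter left out under the block). The calls among the 42 were 0 in every fit that left out 1 library, and 1 and 3 with the replicate block and without letters B and C. With the block as the pairing of libraries, calls over all genes were 1425 by edgeR (644 higher, 781 lower), 591 by DESeq2 (259 and 332) and 1468 by limma-voom (678 and 790). Blocked edgeR fits without letters A, B and C gave 939 (389 and 550), 912 (356 and 556) and 1037 (485 and 552). The block turned 5 genes of the wider lists into calls (Cdkn1a, Pttg1, Pole2, Ticrr and Atm) and changed no call of the 42 genes or of the other 117 genes of those lists. It also turned 13 of the 35 markers tested in the 5 marker lists into calls, 2 higher and 11 lower, beside 7.12% of all genes.

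Without a block, calls over all genes were 25 with upper-quartile normalization (8 higher), 194 with no filter (50 higher, 144 lower), 24 with a minimum of 1 CPM (9 higher), 66 with edgeR's robust option (31 and 35), 183 by DESeq2 (77 and 106) and 18 by limma-voom (6 and 12), against 41 as reported. Leaving out 1 library gave 0 to 520 calls (0 to 128 higher, 0 to 392 lower), with 0 without MB-3 A or MB-3 B and 520 without DMSO B, and the cause was not tested. The median of the G1 genes ran from -0.06 to 0.01 when 1 library was left out and was -0.06 with the block and without letter C, where the median of the 42 was -0.05.

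Signs are uncertain for 22 of the 42 genes, whose reported log2 fold changes were at most 0.11 in size and at most 0.10 after the sign changed, never past the threshold. Sign changes numbered 34 with 1 library left out, 22 with 1 letter left out under the block and 4 elsewhere. With 1 library left out, the range was -0.10 to 0.26 for Ccnd2, -0.07 to 0.00 for Ccnd3, -0.10 to 0.00 for Cdk4, -0.05 to 0.00 for Cdkn1b, -0.02 to 0.19 for Cdkn2a, -0.07 to 0.03 for Rb1, -0.06 to 0.05 for Cdt1, -0.04 to 0.03 for Cdc45, -0.05 to 0.00 for Mcm2, -0.06 to 0.02 for Mcm3, -0.03 to 0.01 for Mcm5, -0.01 to 0.04 for Mcm6, -0.05 to 0.01 for Mcm7, -0.02 to 0.07 for Tyms, -0.03 to 0.02 for Ccna2, -0.02 to 0.05 for Top2a, -0.05 to 0.10 for Mki67, -0.04 to 0.05 for Cdc20, -0.07 to 0.01 for Plk1 and -0.01 to 0.06 for Bub1. Under the block without letter C, the sign changed for Ccnd2 (-0.06), Cdkn1b (0.03), Cdkn2a (-0.05), Mcm4 (-0.00), Mcm6 (-0.04), Top2a (-0.01), Mki67 (-0.00) and Plk1 (0.00). Without letter B it changed for Rb1 (0.05), Cdt1 (0.08), Cdc45 (-0.00), Mcm5 (0.00), Mcm6 (-0.00), Tyms (-0.03), Ccna2 (0.01), Mki67 (-0.03) and Cdc20 (0.05), and without letter A for Rbl1 (0.01), Cdc45 (-0.01), Mcm2 (0.01), Mcm3 (0.00) and Mcm7 (0.00). Cdc45 was at -0.00 with upper-quartile normalization, no filter and DESeq2, and Mki67 at -0.00 with no filter. The other 20 genes kept their sign in every alternative run. These were 19 for each gene but Cdkn2c, which had 18 because the minimum of 1 CPM removed it.

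Cdkn1a and Pttg1 kept a negative sign throughout, between -0.67 and -0.37 and between -0.54 and -0.35, and also passed without a block when no filter was used or when DMSO B was left out, as Pttg1 did by DESeq2. With 1 library left out and no block, the log2 fold change ran from 0.09 to 0.26 for Ticrr. It ran from 0.07 to 0.28 for Atm and from -0.24 to -0.16 for Pole2. Of the 11 assigned DMSO peaks, 5 were covered to at least 50% by MB-3 peaks and 6 had an MB-3 peak within 1000 bp. The shares of all DMSO peaks under these rules were not counted. The 3 genes under 10 CPM (Ccnd2, Cdkn2a and Cdkn2c) had intervals that reach past 1.25-fold, and the part of depth in this was not tested.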
